A study of Homo sapiens with 24 samples.

Results

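The immediate early activation genes described here are EGR1, EGR2, EGR3, NR4A1, NR4A3, FOS, FOSB, JUN, JUNB and DUSP2. They were chosen by name, as every array feature whose gene name in the scanner output is a member, which gave 13 of 41000 features and 10 of 30142 genes. RNA from 4 diffuse large B-cell lymphoma (DLBCL) lines was measured 48 h after nucleofection with siFOXP1 #1, siFOXP1 #2 or a non-targeting control duplex (siCtrl). DB and K422 are lines of the germinal centre type (GCB-DLBCL), and HBL-1 and OCI-Ly3 are lines of the activated type (ABC-DLBCL). Each line had 3 replicates of each siRNA, described as independent experiments, on 24 arrays in all. Every array set RNA of FOXP1-silenced cells, labelled with Cy3, against RNA of that line's siCtrl-treated cells, labelled with Cy5. No array had the dyes exchanged, so a dye bias of a feature cannot be told apart from an effect of silencing. All are established cell lines, all cells had passed through nucleofection and carried a synthetic duplex, and no untransfected cells are among the arrays.

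Immediate early genes are transcribed within minutes of a signal without new protein synthesis, and their mRNAs are short-lived. In B cells they follow engagement of the antigen receptor and of other surface receptors through the MAP kinase, calcium and NF-κB pathways. EGR1, EGR2 and EGR3 are zinc finger factors, NR4A1 and NR4A3 are orphan nuclear receptors, FOS, FOSB, JUN and JUNB are subunits of the dimeric AP-1 factor, and DUSP2 is a nuclear phosphatase that inactivates MAP kinases. Serum response factor binds the CArG box of many of these genes, and CREB family factors bind the cAMP response element (CRE).

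The promoters of EGR1 and EGR2 are shown because these genes were called higher in HBL-1 and because they were the members with a CArG box in the window searched. The RefSeq promoter table on GRCh38.p14 held 12 start sites of 9 members and none for EGR3. The CArG box was searched as CC, then 6 letters that are A or T, then GG, on both strands of the 300 bases from 250 before to 50 after the start. The 250 bases upstream of the EGR1 start (chr5:138465229-138465478, plus strand) and of the third of the EGR2 starts listed (chr10:62816367-62816616, minus strand) follow, each 5′ to 3′ on the gene's strand, with CArG boxes in capitals.
EGR1: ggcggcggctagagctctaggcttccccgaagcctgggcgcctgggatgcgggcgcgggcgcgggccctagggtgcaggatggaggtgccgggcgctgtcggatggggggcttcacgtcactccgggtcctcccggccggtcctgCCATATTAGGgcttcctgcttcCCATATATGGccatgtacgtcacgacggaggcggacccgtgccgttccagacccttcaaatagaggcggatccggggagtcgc
EGR2: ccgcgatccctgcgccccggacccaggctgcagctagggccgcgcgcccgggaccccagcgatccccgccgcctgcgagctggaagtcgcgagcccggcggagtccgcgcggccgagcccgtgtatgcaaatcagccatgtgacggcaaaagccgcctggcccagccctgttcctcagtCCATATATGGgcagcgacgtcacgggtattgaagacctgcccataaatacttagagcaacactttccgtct

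EGR1 held 2 CArG boxes, whose left ends lay at -105 and -83 from the start, and EGR2 held 1, at -71 from that start. A CArG box was present in 2 of the 12 member windows and in 1.29% of the 35116 promoter windows of the table. The CRE core TGACG was present in 7 of the 12 member windows, against 24.6% of all windows. These were windows of 7 members, all but NR4A1 and DUSP2 of the 9. The full palindrome TGACGTCA, which contains the core, was in no member's window, against 1.85%. The EGR element GCGNGGGCG, to which EGR proteins bind, was present in 3 of the 12 member windows, for EGR1, EGR2 and DUSP2, against 9.43% of all windows. The forkhead element TGTTTAC, of the kind FOXP proteins bind, was present in 1 of the 12, for JUNB, against 3.42%, and TGTTTGC for no member, against 3.89%. The AP-1 element TGANTCA (7.71% of all windows) and the NR4A element AAAGGTCA (1.22%) were in no member's window. These are matches of letters in a short window and not measured binding sites.

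**Figure D1:**
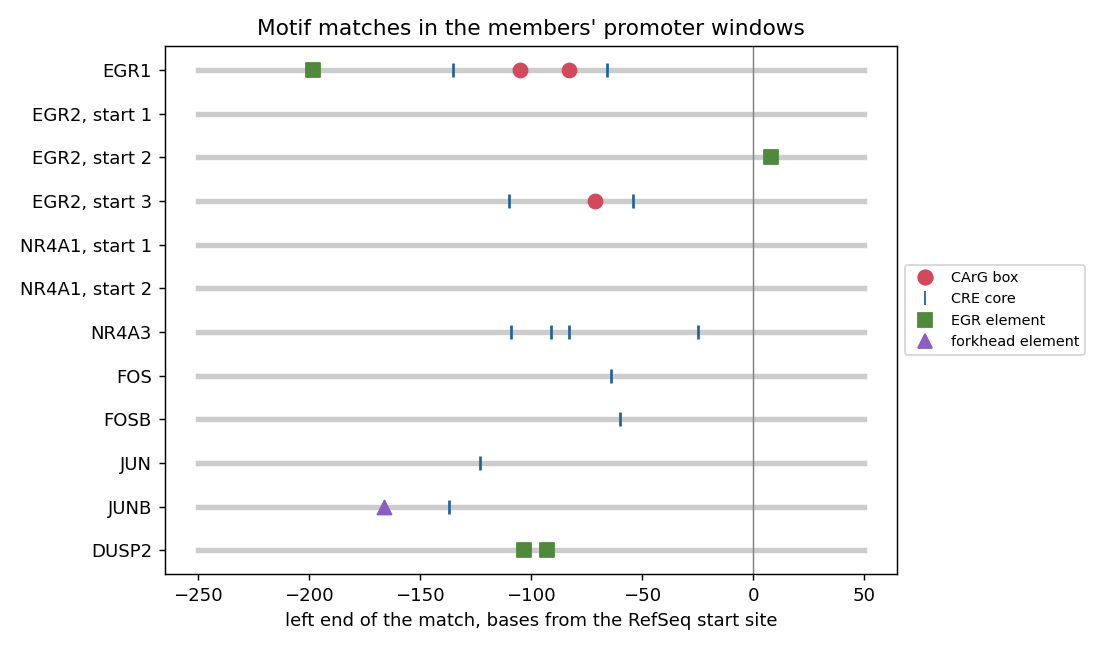
Motif matches in the 12 promoter windows of 9 members (rows). The x axis gives the left end of each match in bases from the RefSeq start site, and symbols give the motif. EGR1 has CArG boxes at -105 and -83 and the third EGR2 start has 1 at -71.

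FOXP1 itself, the silenced gene, lay below 0 on all 6 arrays of each line, with a mean log2 ratio between -2.00 in DB and -1.34 in K422. The B cell markers MS4A1, CD79A, CD79B, CD22 and PAX5 were well above background in the siCtrl channel on all 6 arrays of each line. All 4 ABC markers (IRF4, PIM2, BATF and CCND2) were so in HBL-1 and OCI-Ly3 and 2 of them in DB and K422, and all 4 GCB markers (MME, BCL6, LMO2 and MYBL1) were so in DB and K422 and 2 of them in the ABC lines. Of the 3 stromal collagens, 0 reached that mark in any line, of the 4 T cell markers 0 (DB) to 2 (K422 and HBL-1), and of the 4 monocyte markers 1 (DB) to 3 (K422). Per array, 57.3% to 64.5% of features cleared background in a channel, and precision is limited by how few arrays there are. Lines were compared within a scan group, DB with OCI-Ly3 and K422 with HBL-1. A scan group is the arrays scanned in the same calendar year, and whether they shared a scanning session was not examined.

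In siCtrl-treated cells the 4 lines differed widely in which early genes they expressed. Levels are log2 of the processed Cy5 signal minus the array's 75th percentile. Arrays of the same line and replicate number were averaged, which gave n = 3 per line. Between 5 members (DB and OCI-Ly3) and 10 (HBL-1) were well above background in the siCtrl channel on all 6 arrays of a line, with 8 in K422. HBL-1 was the line in which all of the EGR and NR4A members were measured on every array.

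EGR1, a zinc finger factor induced through serum response factor, was present in 3 lines and not well above background in OCI-Ly3 on any array. Its siCtrl level in replicates 1, 2 and 3 was 2.13, 0.28 and 1.12 in HBL-1, 1.76, -0.79 and -0.72 in K422, 0.026, -0.61 and -0.34 in DB, and -6.89, -6.56 and -6.44 in OCI-Ly3. HBL-1 and K422 overlapped (difference 1.09 ± 0.63, SE, limma adjusted p = 0.210), as did K422 and DB, while every OCI-Ly3 value lay far below. For a bound, the dim line was set on each array to the lowest signal that was well above background, or to its own value if higher. This followed quantile normalisation of the mean log signals of the arrays. So set, EGR1 was at least 30.6-fold, or 4.94 on the log2 scale, lower in OCI-Ly3 than in DB. The processed signals differed by -6.32 ± 0.63 (SE, OCI-Ly3 minus DB, limma adjusted p = 8.29e-06). With normexp correction the difference was -2.64 (limma adjusted p = 0.0116), smaller than that bound, so the size depends on the background correction. EGR2 was bright in HBL-1 alone, at 1.12, -0.38 and 0.12, against -2.49, -7.24 and -6.63 in K422, where it was well above background on the 2 arrays of replicate 1 and no other. The processed signals of HBL-1 and K422 differed by 5.74 ± 1.04 (SE) on the log2 scale (limma adjusted p = 8.73e-04), but with K422 near background the size is uncertain, at 3.04 with normexp correction and from 4.84 to 7.22 on leaving out 1 replicate. EGR2 was well above background on 1 of 6 arrays in DB and 0 of 6 in OCI-Ly3. EGR3 was likewise highest in HBL-1, at -1.79 ± 0.64 (SD, n = 3) in HBL-1 and measured on 2 of 6 arrays in K422 and 0 of 6 in DB and OCI-Ly3, and the processed signals of HBL-1 and K422 differed by 4.26 ± 0.56 (SE, limma adjusted p = 7.96e-05). With K422 near background this size is uncertain too, at 1.85 with normexp correction and from 3.62 to 4.98 on leaving out 1 replicate.

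NR4A1, also known as Nur77, was measured in all 4 lines, at 1.17 ± 0.61 (SD, n = 3) in HBL-1, followed by K422 with -0.13 ± 1.76, DB with -1.41 ± 0.59 and OCI-Ly3 with -1.80 ± 0.23. DB and OCI-Ly3 did not differ beyond their spread (difference -0.39 ± 0.70, SE, limma adjusted p = 0.764), and neither did HBL-1 and K422 (1.30 ± 0.70, adjusted p = 0.175). NR4A3, a relative that binds the same element, was higher in HBL-1 than in K422 by 3.01 ± 0.63 (SE, limma adjusted p = 0.00227), with levels of 0.32 ± 0.57 (SD) and -2.70 ± 1.24. It was well above background on 3 of 6 arrays in DB, where its mean was -4.61 ± 1.12, and on all 6 in OCI-Ly3, where its mean was -3.51 ± 0.072.

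The AP-1 subunits had another order. FOS was highest in K422, at 1.02, -2.29 and -2.92 in the 3 replicates, against -3.33, -4.12 and -3.56 in HBL-1. The values of the 2 lines did not overlap, and the difference passed the test at -2.28 ± 0.83 (SE, limma adjusted p = 0.0457), but it was -1.07 with adjusted p = 0.0784 without K422 replicate 1, and the adjusted p ran from 0.0731 to 0.128 on leaving out each HBL-1 replicate. FOSB was likewise higher in K422 than in HBL-1, by 1.74 ± 0.44 (SE, HBL-1 minus K422 -1.74, limma adjusted p = 0.00765), and its control signal in DB did not clear background on an array. With normexp correction the FOS and FOSB differences were -0.98 and -0.52 and were not called (limma adjusted p = 0.653 and 0.882). JUN, the usual partner of FOS, was highest in OCI-Ly3, at 2.73, 2.41 and 2.56, above the DB values of 0.14, -0.95 and -0.98 by 3.16 ± 0.55 (SE, limma adjusted p = 6.29e-04). JUNB had its lowest level in DB, at -0.12 ± 0.30 (SD, n = 3), against 5.04 ± 0.23 in OCI-Ly3, a difference of 5.16 ± 0.19 (SE), or 35.7-fold (limma adjusted p = 2.07e-09), and was 3.67 ± 0.21 in K422 and 3.50 ± 0.21 in HBL-1.

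DUSP2 was the member called higher in the ABC line in both scan groups. Its siCtrl level was 4.97 ± 0.21 (SD, n = 3) in HBL-1 against 1.63 ± 0.033 in K422, or 10.1-fold (limma adjusted p = 1.61e-08), and 3.52 ± 0.26 in OCI-Ly3 against 1.52 ± 0.13 in DB, or 3.99-fold (adjusted p = 1.05e-06). In all, 4 of 10 members were called different between OCI-Ly3 and DB (adjusted p under 0.05 and at least 1 on the log2 scale), 3 higher and 1 lower in OCI-Ly3, where 25.8% of all genes were called. Between HBL-1 and K422 it was 6 of 10, 4 higher and 2 lower in HBL-1, where 25.8% of all genes were also called.

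**Figure D2:**
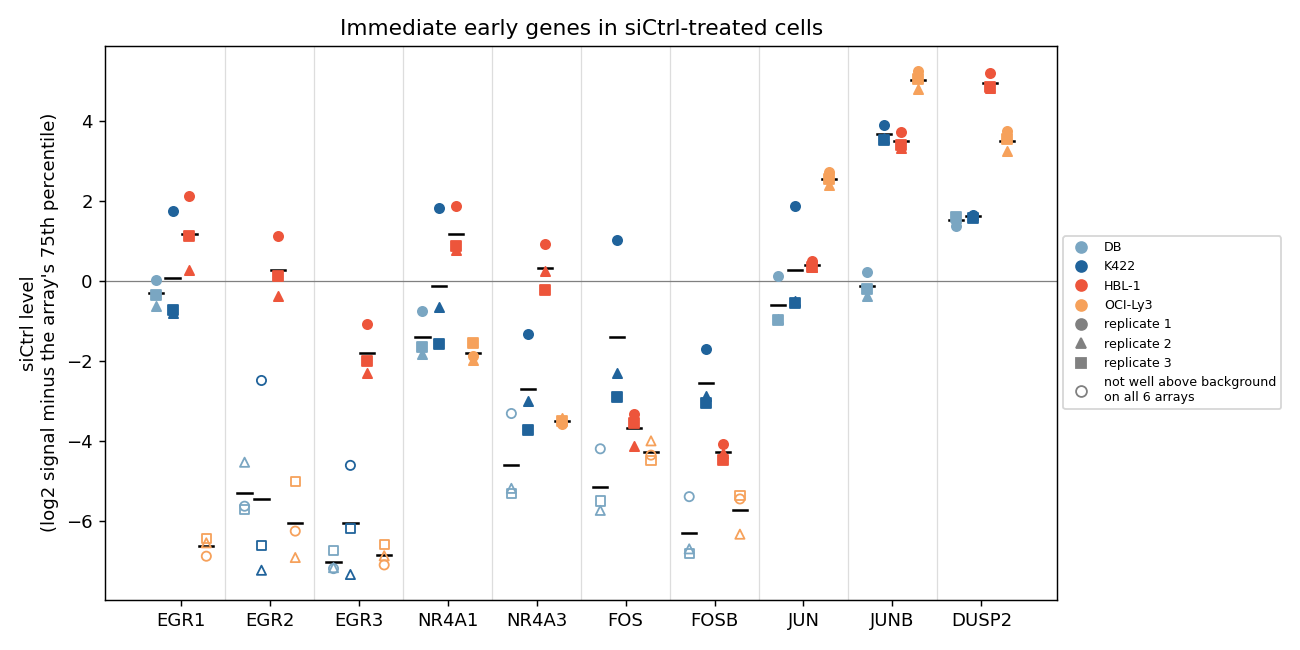
siCtrl level of each member (x axis) in the 4 lines (colours), as log2 signal minus the array's 75th percentile (y axis). Points are the 3 replicates, each the mean of 2 arrays, short bars their mean, and open points mark a line where the gene was not well above background on all 6 arrays. FOS in K422 spreads from -2.92 to 1.02, while DUSP2 in K422 stays within 0.057.

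The replicates of a line also differed from each other. In K422, replicate 1 held the highest siCtrl level of all 8 members measured on every array. It lay above the mean of the other replicates by 3.63 for FOS, 2.95 for NR4A1, 2.52 for EGR1, 2.40 for JUN, 2.04 for NR4A3 and 1.27 for FOSB on the log2 scale, and by 0.35 for JUNB and 0.029 for DUSP2. So 6 of 8 measured members were more than 1 above the other replicates, against 3.07% of 16330 genes measured in K422, and the median over those genes was -0.045. The siFOXP1 channel of replicate 1 was raised too, with a median over the 8 members of 1.98, beside 2.22 in the siCtrl channel. Of 24 other early response genes measured in K422, 22 were above the mean of the other replicates in replicate 1, 6 of them by more than 1, with a median of 0.76, and MYC and GADD45B were below it. The chemokine CCL3 had 3.83 in replicate 1 against 0.19 and 0.36, and the activation marker CD69 -0.97 against -3.91 and -4.01. The 5 measured stress genes (HSPA1A, DNAJB1, HSPH1, DDIT3 and HMOX1) had a median of -0.65 in the same replicate. Replicates 1 and 2 of K422 lay on the same slide, whereas in HBL-1 replicate 1 was on another slide than replicates 2 and 3, and the part of the slide was not tested.

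In HBL-1 all 10 members were highest in replicate 1 as well, by a median of 0.71 on the log2 scale, and 4 of 10 by more than 1, against 0.320% of 16556 genes. In DB, replicate 1 was highest for 4 of 5 measured members (median 0.50), and 2 of 5 exceeded 1, against 3.06% of 14978 genes. In OCI-Ly3, replicate 1 was highest for 3 of 5, and 0 of 5 exceeded 1, against 0.341% of 15829 genes. The siCtrl levels of the 2 arrays with the same replicate number were close, with a median absolute difference over the measured members of 0.084 in K422 and 0.036 in HBL-1, against 1.02 and 0.44 between arrays of different numbers. Whether those arrays shared siCtrl RNA is not stated, so the 6 ratios of a line may be fewer than 6 independent values, and p-values over them may then be too small.

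The comparison within each array asks how early gene transcripts changed when FOXP1, a forkhead transcription factor and repressor, was depleted. In bulk RNA, fewer cells expressing a gene and less RNA per cell cannot be told apart. A gene was called at a limma adjusted p under 0.05 with a mean log2 ratio of at least 0.5 in size over the 6 arrays of a line. In HBL-1 2 of 10 members were called higher and 0 lower, where 5.73% of all genes were called higher and 4.17% lower. In K422 0 were called higher and 2 lower (1 with the replicate number as a block), against 2.34% and 2.1% of all genes. In OCI-Ly3 1 was called higher (0 with the block) and 0 lower, against 2.8% and 1.62%, and in DB 0 were called in either direction, against 1.33% and 0.829%, with JUN alone at an unadjusted p under 0.05. The median log2 ratio of the 10 members was 0.067 in HBL-1, and it was -0.033 for OCI-Ly3, -0.19 for DB and -0.44 for K422, where the median of all genes was 0 in each line.

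**Figure D3:**
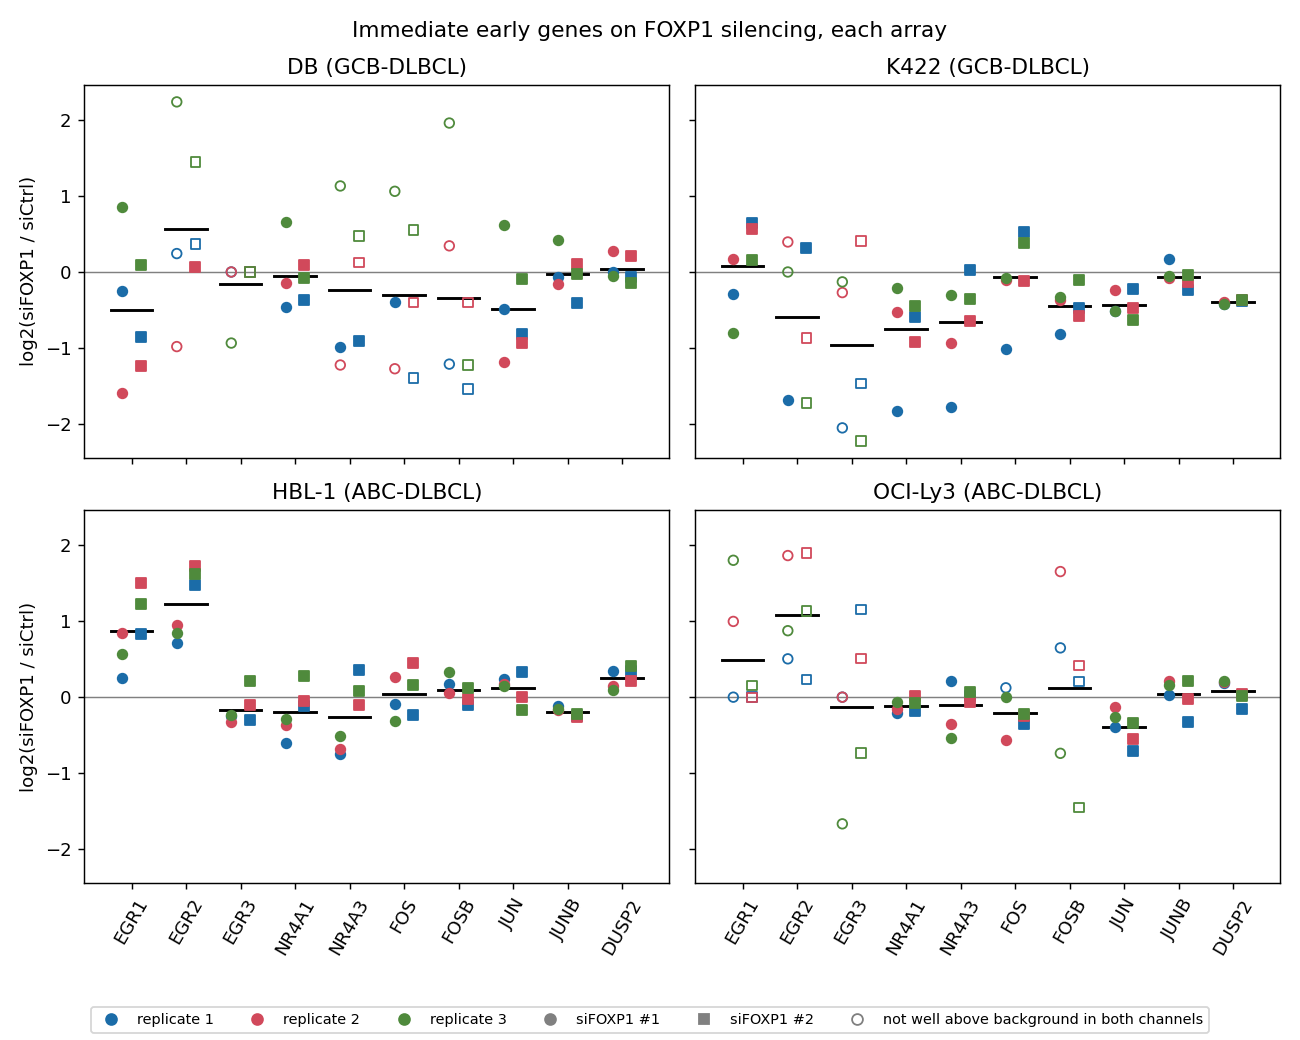
log2 ratio of siFOXP1 over siCtrl (y axis) of each member (x axis) on every array, with 1 panel per line. Circles are siFOXP1 #1 and squares siFOXP1 #2, colours give the replicate, bars the mean over 6 arrays, and open symbols mark arrays where the gene was not well above background in both channels. EGR1 and EGR2 lie above 0 on all 6 arrays of HBL-1, and NR4A1 lies below 0 on all 6 of K422.

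EGR1 and EGR2 rose in HBL-1. EGR1 ratios in replicates 1, 2 and 3 were 0.26, 0.85 and 0.57 with siFOXP1 #1 and 0.83, 1.5 and 1.23 with siFOXP1 #2. All 6 were above 0, and within each replicate the value for #2 was the higher. FOXP1 itself averaged -2.19 with #2 and -1.29 with #1 in this line. The mean was 0.87 ± 0.45 (SD, n = 6 arrays), or 1.83-fold, with limma adjusted p = 0.0126. EGR2 ratios were 0.71, 0.95 and 0.85 with #1 and 1.47, 1.72 and 1.62 with #2, so the siRNAs did not overlap, and the mean was 1.22 ± 0.43 (SD, n = 6), or 2.33-fold, with limma adjusted p = 0.0140. The difference between siRNAs was 0.63 ± 0.51 (SE) for EGR1 and 0.77 ± 0.72 for EGR2, with limma adjusted p = 1.00 for both. These standard errors come from a spread shared by all lines and do not measure the spread within HBL-1. There the SD with #1 and #2 was 0.30 and 0.34 for EGR1 and 0.12 and 0.13 for EGR2. With siFOXP1 #1 alone neither gene was called (adjusted p = 0.365 and 0.330), and without replicate 1, 2 or 3 the adjusted p was 0.0289, 0.116 and 0.0759 for EGR1 and 0.0628, 0.0805 and 0.0777 for EGR2. EGR1 was also not called under normexp and median centring (0.44) or with both arrays of a replicate averaged (adjusted p = 0.0753). In the same line the B cell markers CD79A, CD79B and CD22 were called higher (by 0.56 to 0.89), MS4A1 and PAX5 were not called, and the stress gene HMOX1 was called lower (-0.96). Their part in the EGR values was not tested.

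EGR3 was measured on all arrays of HBL-1 and did not pass the test there, with a mean of -0.17 ± 0.20 (SD, n = 6) and limma adjusted p = 0.833. EGR4, the remaining family member and not in the set of 10, was called higher in both ABC lines, by 0.79 ± 0.14 (SD, n = 6) in HBL-1 (limma adjusted p = 5.62e-06) and 0.71 ± 0.21 in OCI-Ly3 (adjusted p = 4.92e-05), on 6 of 6 arrays each. In DB its mean was 0.30 ± 0.47, above 0 on 5 of 6 arrays (adjusted p = 0.0528), and in K422 0.18 ± 0.16, above 0 on 6 of 6 (adjusted p = 0.231), and the difference between subtypes is not given for this gene.

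In OCI-Ly3 the ratio of EGR2 was above 0 on 6 of 6 arrays, at 0.50, 1.86 and 0.87 with siFOXP1 #1 and 0.23, 1.90 and 1.14 with #2. Its mean of 1.09 ± 0.69 (SD, n = 6) passed the test (limma adjusted p = 0.0428), but control signal cleared background on 0 arrays and siFOXP1 signal on 4, so the size is not measured and no fold is given. The call was lost in 11 of 16 alternative settings, among them those without OCI-Ly3 replicate 2 (0.69, adjusted p = 0.361) or 3 (1.13, 0.137). Among the marker lists in OCI-Ly3, MS4A1 (0.64), CD8A (0.67) and COL1A1 (0.52) were called higher and CCND2 (-0.60) lower, COL1A1 with siCtrl signal well above background on 0 arrays and CD8A on 2. They were 1 of 4 T cell and 1 of 3 stromal markers, whose summed siCtrl levels ran from 0.108 to 0.131 and from 0.0349 to 0.0622 over the replicates, and their part was not tested. The EGR1 ratios of OCI-Ly3 rest on signal that was not well above background in either channel on any array. In K422 EGR3 averaged -0.95 ± 1.1 (SD, n = 6, limma adjusted p = 0.0420), with siCtrl well above background on 2 arrays and siFOXP1 on 0, which likewise gives no fold. Its call was lost in 10 of 15 alternative settings, among them those without K422 replicate 1 (-0.55, adjusted p = 0.382) or 3 (-0.84, 0.152), and in a further setting it turned to 0.048 with normexp background correction and median centring.

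In K422, EGR1 ratios ran from -0.81 to 0.65, 4 of 6 above 0, with a mean of 0.074 ± 0.55 (SD, limma adjusted p = 0.968). In DB they were -0.25, -1.59 and 0.85 with #1 and -0.86, -1.24 and 0.10 with #2, so the replicates disagreed in sign, and the mean of -0.50 ± 0.91 did not pass (adjusted p = 0.249).

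NR4A1 fell in K422. Its ratios were -1.83, -0.52 and -0.21 with siFOXP1 #1 and -0.59, -0.92 and -0.44 with #2, below 0 on all 6 arrays, and the siRNAs overlapped. The mean was -0.75 ± 0.58 (SD, n = 6), or 0.594 of siCtrl, with limma adjusted p = 0.00239. Without replicate 1, whose siCtrl level was the highest, the mean was -0.52 (adjusted p = 0.0178). With K422 fitted alone the adjusted p was 0.120, and with siFOXP1 #2 alone it was 0.0939. NR4A3 in K422 had -1.78, -0.93 and -0.31 with #1 and 0.027, -0.64 and -0.35 with #2, a mean of -0.66 ± 0.64 that did not pass (limma adjusted p = 0.0685). It was called lower with the deposited matrix (limma adjusted p = 0.0437) and with probe averaging (-0.52, 0.0184). Filters on dim probes gave that call too, at 0.0413 for signal in a channel and 0.0386 for signal in both. In HBL-1 both receptors were below 0 on all 3 arrays of #1, with means of -0.42 for NR4A1 and -0.64 for NR4A3. With #2 they scattered around 0 (0.039 and 0.11), and the siRNAs did not overlap for either gene. Neither difference between siRNAs passed the test (limma adjusted p = 1.00), which used the spread shared by all lines and does not measure that within HBL-1. There the SD with #1 and #2 was 0.16 and 0.21 for NR4A1 and 0.12 and 0.23 for NR4A3. In OCI-Ly3 NR4A1 averaged -0.11 ± 0.086 (SD, n = 6, adjusted p = 0.732), and in DB -0.050 ± 0.40 (adjusted p = 1.00). Of 4 monocyte markers, CSF1R was also called lower in K422 (log2 ratio -0.99, limma adjusted p = 1.32e-04), as was LYZ (-0.78), which was not well above background on any array there. The other markers of the list, CD68 and CD14, had 0.32 (6 of 6 arrays above 0) and 0.13 (4 of 6) and did not pass (adjusted p = 0.198 and 0.599). The summed siCtrl level of the 4 markers there, on the linear scale relative to the 75th percentile, ran from 0.387 to 0.768 over the replicates, and the part of such cells was not tested.

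Of the AP-1 subunits, 0 were called by limma in any line, and at an unadjusted p under 0.05 JUN passed in DB, K422 and OCI-Ly3 and JUNB in HBL-1. JUN came nearest, with means of -0.48 ± 0.66 (SD, n = 6) in DB (limma adjusted p = 0.0504), -0.43 ± 0.17 in K422 (adjusted p = 0.0589) and -0.40 ± 0.21 in OCI-Ly3 (adjusted p = 0.0881). Its ratios were below 0 on 6 of 6 arrays in K422, from -0.64 to -0.23, and in OCI-Ly3, from -0.71 to -0.12. In DB 5 of 6 were below 0, and in HBL-1 5 of 6 were above 0 with a mean of 0.12 ± 0.18 (adjusted p = 0.676). Leaving out DB replicate 3 gave JUN a mean of -0.86 in DB (limma adjusted p = 7.20e-05), and 3 more members were then called lower there, EGR1 by 0.98 (mean -0.98, adjusted p = 0.0120), FOS (-0.87, 0.00676) and NR4A3 (-0.75, 0.0160). FOS and NR4A3 were well above background in both channels on 1 and 2 of the 6 DB arrays. On the DB array of siFOXP1 #1 replicate 3 the ratios of EGR1, EGR2, NR4A1, NR4A3, FOS, FOSB, JUN and JUNB were all above 0, from 0.42 for JUNB to 2.24 for EGR2. The siCtrl signal of EGR2, NR4A3, FOS and FOSB was not well above background on that array, so the sizes of their ratios are not measured.

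FOS, which forms AP-1 only as a dimer with a JUN protein, stayed within its spread in the 3 lines where it was measured on most arrays, with means of -0.068 ± 0.54 (SD, n = 6) for K422, 0.041 ± 0.30 for HBL-1 and -0.21 ± 0.25 for OCI-Ly3 (limma adjusted p of at least 0.652). FOSB was below 0 on 6 of 6 arrays in K422, from -0.82 to -0.105, with a mean of -0.45 ± 0.24 that did not pass (limma adjusted p = 0.407). The fit used 1 spread per gene over all lines, which for FOSB took in dim ratios of DB (SD 1.32) and OCI-Ly3 (SD 1.09). So this p-value does not measure the spread within K422. JUNB, an AP-1 subunit that often opposes JUN, was represented by a bright and a dimmer feature that disagreed. The bright feature (chr19:12765047-12765106 on hg18) was below 0 on 6 of 6 arrays in HBL-1, from -0.26 to -0.12, with a mean of -0.20 ± 0.057 (limma adjusted p = 0.0555), while the dimmer feature (chr19:12763998-12764057) averaged 0.26 ± 0.20 there and was above 0 on 6 of 6. The dimmer feature was above 0 in the other lines as well, on 5 of 6 arrays in DB and 6 of 6 in K422 and OCI-Ly3, with means between 0.24 and 0.37.

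DUSP2 had small but tightly repeated ratios of opposite sign in K422 and HBL-1. In K422 they were -0.42, -0.40 and -0.42 with siFOXP1 #1 and -0.38, -0.37 and -0.37 with #2, a mean of -0.39 ± 0.024 (SD, n = 6, limma adjusted p = 2.13e-05). In HBL-1 they were 0.35, 0.15 and 0.10 with #1 and 0.34, 0.21 and 0.40 with #2, a mean of 0.26 ± 0.12 (adjusted p = 4.34e-04). Both passed the adjusted p but stayed under the limit of 0.5, so neither was called. Its other feature, at chr2:96173630-96173689 on hg18, gave -0.36 ± 0.056 (SD, n = 6) in K422 and 0.31 ± 0.20 in HBL-1, close to the bright feature at chr2:96172962-96173021. With normexp and median centring the HBL-1 value turned to -0.16 (adjusted p = 0.459). In OCI-Ly3 DUSP2 averaged 0.084 ± 0.14 (SD, n = 6, adjusted p = 0.270) and in DB 0.035 ± 0.17 (adjusted p = 0.795).

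The remaining measurements came from single features, for EGR1 at chr5:137832790-137832849, EGR2 at chr10:64241856-64241915, EGR3 at chr8:22601909-22601968, NR4A1 at chr12:50739445-50739504, FOS at chr14:74817967-74818026, FOSB at chr19:50670045-50670104 and JUN at chr1:59020317-59020376, all on hg18. JUN had 10 spots on each array and the others 1. NR4A3 had a feature in use at chr9:101668806-101668865 and another at chr9:101635572-101635631 that was not well above background in either channel on any array.

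The 2 siRNAs were set against each other within each line. No member was called different in any line, where the calls over all genes were 0.159% for K422, 0.173% for HBL-1, 0.192% for OCI-Ly3 and 0.302% for DB. At an unadjusted p under 0.05 there was 1 member each in DB and OCI-Ly3 and 0 in the other lines. The differences reached 1.42 on the log2 scale in DB, where FOSB averaged 0.36 ± 1.59 (SD, n = 3) with #1 and -1.05 ± 0.59 with #2 (limma adjusted p = 0.484) and was well above background on 1 array in 1 channel. This does not show that the siRNAs acted alike.

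Between the subtypes, as represented by these 4 lines, the response of EGR1 differed. Its mean over HBL-1 and OCI-Ly3 was 0.68 and over DB and K422 -0.21, a difference of 0.89 ± 0.25 (SE, limma adjusted p = 0.0358). The OCI-Ly3 part of that value is not measured. In all, 1 of 10 members was called, against 2.26% of all genes. The subtype tests rest on the spread between arrays within each line and siRNA. With 2 lines per subtype, they do not measure the spread between lines. The EGR1 call was lost in 17 of 24 alternative settings. Among them were the replicate block (0 members called) and leaving out any replicate other than DB replicate 3 or OCI-Ly3 replicate 1 (adjusted p from 0.0518 to 0.0969). It was also lost with the deposited matrix, where EGR2 was called in its place (1.19, limma adjusted p = 0.0434). Within a scan group the EGR1 differences were 0.80 ± 0.36 (SE) for HBL-1 minus K422 (adjusted p = 0.195) and 0.99 ± 0.36 for OCI-Ly3 minus DB (0.185). EGR2 differed by 1.17 ± 0.36 (SE) between subtypes without passing (adjusted p = 0.0535), and by 1.82 ± 0.51 between HBL-1 and K422 (adjusted p = 0.0298), where K422 was measured on 2 arrays of 6. DUSP2 differed between HBL-1 and K422 by 0.65 ± 0.068 (SE, adjusted p = 7.38e-06) and between OCI-Ly3 and DB by 0.048 ± 0.068 (adjusted p = 0.847). Its subtype difference of 0.35 ± 0.048 (adjusted p = 1.68e-04) stayed under the limit of 0.5. The DUSP2 call between HBL-1 and K422 was lost in 1 of 22 alternative settings, normexp and median centring (0.38, limma adjusted p = 0.736). EGR2 and DUSP2 were the 2 members called between HBL-1 and K422, where 4.34% of all genes were called, and between OCI-Ly3 and DB it was 0 members and 1.43% of all genes. The EGR2 call was lost in 8 of 22 alternative settings, which were the replicate block (adjusted p = 0.0652, leaving 1 member called), the slide block (0.0573), the mean of both arrays of a replicate (0.115) and leaving out any replicate of HBL-1 (0.0827 to 0.104) or replicate 2 or 3 of K422 (0.0568 and 0.0799).

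**Figure D4:**
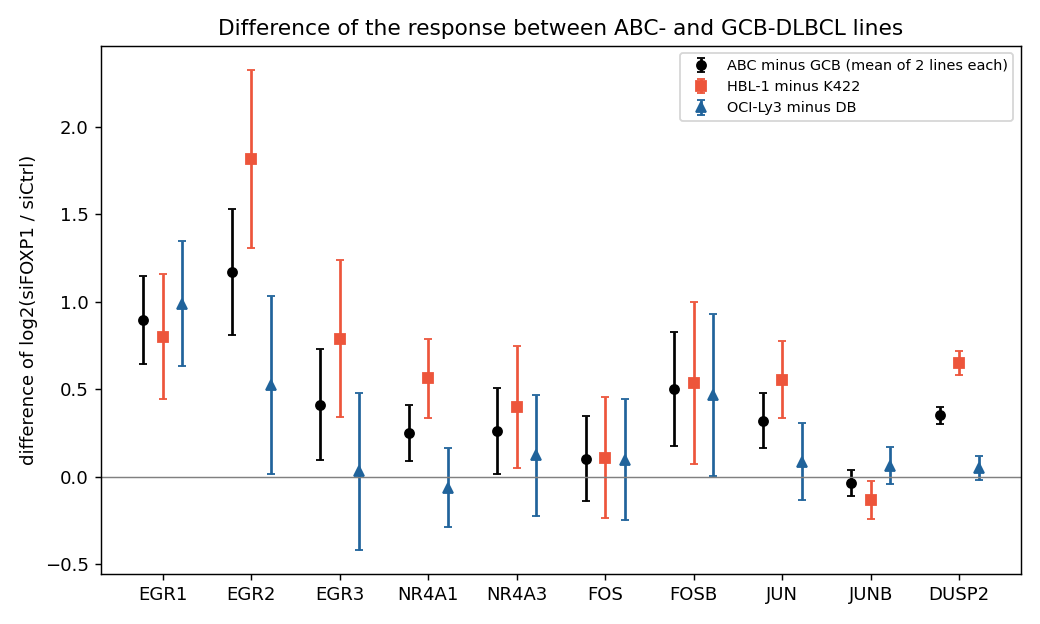
Difference of the log2 ratio between ABC and GCB lines (y axis) for each member (x axis). It is given as the mean of both lines of each subtype and within each scan group, with standard errors of the limma fit. HBL-1 minus K422 is 1.82 for EGR2 and 0.65 for DUSP2.

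Among 29 other early response genes, 1 was called higher and 2 lower in DB, while K422 had 0 and 1, HBL-1 3 and 1, and OCI-Ly3 1 and 0. Over all genes, 1.33% were called higher and 0.829% lower in DB, and 2.34% and 2.1% in K422. The shares were 5.73% and 4.17% in HBL-1, and 2.8% and 1.62% in OCI-Ly3. The median log2 ratio of the 29 genes lay between -0.027 and 0.023 in every line, beside 0 over all genes. In HBL-1 the risers were CD69 at 1.63 ± 0.49 (SD, n = 6, limma adjusted p = 1.14e-04), the antiproliferative gene BTG2 at 0.99 ± 0.22 (adjusted p = 4.06e-08) and EGR4. BTG2 was also called higher in DB, by 0.65 ± 0.31 (adjusted p = 3.20e-05). It was above 0 on 6 of 6 arrays in K422 and OCI-Ly3 too, under the limit of 0.5. The means there were 0.43 ± 0.30 (limma adjusted p = 6.60e-04) and 0.41 ± 0.15 (0.00104). CCL3, a chemokine secreted by activated B cells, was below 0 on 6 of 6 arrays in DB, K422 and HBL-1, with means of -0.53 ± 0.55 (limma adjusted p = 0.0211), -0.87 ± 0.34 (3.25e-04) and -0.57 ± 0.25 (0.00477). IER3 was the other gene called lower in DB, at -0.52 ± 0.60, with 4 of 6 arrays below 0 (adjusted p = 0.0274). Of 21 upstream kinases, transcription factors and partners, 0 were called in DB and K422, 2 higher in HBL-1 and 1 higher in OCI-Ly3. The shares of all genes called are those given above. The kinase MAPK3 (ERK1) and the calcium-responsive factor MEF2C rose in HBL-1 by 0.62 ± 0.17 and 0.60 ± 0.19 (SD, n = 6, limma adjusted p = 1.46e-06 and 6.04e-05). MAPK3 was above 0 on 6 of 6 arrays in the other lines too, at 0.36, 0.44 and 0.47 in DB, K422 and OCI-Ly3 (adjusted p of 0.00172 or lower), and MEF2C was 0.42 in K422 (adjusted p = 0.00322), all under the limit of 0.5. The calcineurin target NFATC1 rose in OCI-Ly3 by 0.73 ± 0.15 (adjusted p = 2.31e-07).

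Over the 24 arrays, which share lines, replicates and possibly siCtrl RNA, the genes whose ratio ran most like that of EGR1 were LMBRD1, BBS4 and CRYBB2P1 (Pearson r = 0.847, 0.846 and 0.840 among 15320 genes that cleared background with both dyes on at least 18 arrays). For NR4A1 they were LYL1 (r = 0.796), a transcript that the array names only by its database entry (0.795) and LOC391282 (0.778). Among members that did so, EGR1 and JUN ratios had r = 0.723 over the 24 arrays, NR4A1 and NR4A3 0.758 and NR4A3 and FOS 0.691. As deviations from the mean of each line and siRNA, the same pairs had r = 0.759, 0.743 and 0.834, and EGR1 and DUSP2 had -0.589. Every EGR1 correlation here includes the 6 OCI-Ly3 arrays, where EGR1 was not well above background in either channel. Those of NR4A3 and FOS include the 6 DB arrays. There NR4A3 and FOS were well above background in both channels on 2 and 1 arrays.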

How the data were processed

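RNA of FOXP1-silenced and siCtrl-treated cells was compared on 24 2-colour Agilent arrays. In the deposited scanner output, Feature Extraction gives a processed intensity for each dye and a log10 ratio, Cy5 against Cy3. The authors' software had corrected these for background and dye. Its version was 10.5.1.1 for the scan group of DB and OCI-Ly3 and 10.7.3.1 for that of K422 and HBL-1. A deposited matrix holds log2 values running with Cy3 against Cy5 (r per array 0.804 to 0.998, column medians -0.17 to 0.067, not centred). Ratios were turned to log2 of siFOXP1 over siCtrl. Control spots (1639 of 45015) and 113 to 469 outlier spots per array were dropped, replicate spots averaged, and a gene was read from its brightest probe. Dim spots carry surrogate signals or a ratio of exactly 0.

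limma 3.58.1 in R 4.3.3 estimated 8 means (line by siRNA) from the 24 arrays, with 1 spread per gene shared by all lines. Scattered ratios of a gene in 1 line, as from dim signal, therefore widen its standard errors in every line. The p-values were adjusted by Benjamini-Hochberg over the whole table. Levels were tested on 3 replicates per line. The code was tested on simulated data. The members and gene lists were chosen with earlier results of these data known. Named genes are the members, FOXP1 and, from the lists, up to 5 called genes per line with 1 sign on 6 arrays. IER3, HMOX1, the markers given with ratios, the list genes in lines without a call, MYC, GADD45B and the levels of CCL3 and CD69, and CCL3 in HBL-1, were named after their values were seen. Replicates were independent experiments by the study's description, so numbers were taken to pair arrays of a line. Deviations of paired arrays correlated at 0.047 to 0.284 over all genes and at 0.114 to 0.573 over 16457 genes clear of background with both dyes on most arrays, a measure not fixed beforehand. A further B cell marker of the list is not reported here. Promoter sequences are from RefSeq. Alternatives covered normexp with loess or centring, the deposited matrix, dim-probe filters, outlier spots, probe averaging, replicate and slide blocks, single lines, the methods' t-test, single siRNAs and left-out replicates. Averaging both arrays of a replicate was added after seeing the data.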

Additional observations from a re-analysis of the deposited data

Results flagged for a closer look

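EGR3 in DB stood apart on the array of siFOXP1 #1 replicate 3, with a log2 ratio of -0.94 against 0 on the other 5 arrays, with neither channel well above background on any of them. This was 1 of 40 combinations of member and line examined. By chance the rule marks about 1 in 20 where values vary continuously. That rate does not apply here, as any value other than 0 stands apart from 5 ratios of exactly 0.

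The response of EGR1 differed between ABC and GCB lines by 0.89 on the log2 scale. Between HBL-1 and K422 that of EGR2 differed by 1.82 and that of DUSP2 by 0.65. Each passed the test of the difference itself, which does not measure the spread between lines of a subtype. For EGR1 the OCI-Ly3 arrays had no signal well above background, and for EGR2 K422 had such signal on 2 of 6 arrays. DUSP2 was well above background on every array. Its call was lost in 1 of 22 alternative settings, normexp and median centring (0.38, limma adjusted p = 0.736).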

How the results depend on the processing

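The number of members called was 2 in K422 and became 1 under normexp and loess, the slide block, the mean of the arrays of both siRNAs and siFOXP1 #1 alone, and 0 with each line alone, the methods' t-test and siFOXP1 #2 alone. It became 3, with NR4A3 added, under the deposited matrix and probe averaging. Under either filter on dim probes the members called were NR4A1 and NR4A3, and under normexp and median centring NR4A1 and DUSP2. In HBL-1 it was 2 and became 1 under normexp and median centring and under the mean of both siRNAs' arrays, and 0 with siFOXP1 #1 alone. In OCI-Ly3 it was 1 and became 0 under either normexp setting, the slide block, the mean of both siRNAs' arrays, the filter on signal in both dyes, each line alone, the methods' t-test and either siRNA alone. Between subtypes it was 1 and became 2 under normexp and loess and under either filter on dim probes, and 0 under normexp and median centring, the slide block, the mean of both siRNAs' arrays and either siRNA alone. With the deposited matrix it stayed at 1, but the member called was EGR2 and not EGR1. With the replicate block, which pairs arrays by number, it was 1 in K422, 0 in OCI-Ly3, 0 between subtypes and 1 between HBL-1 and K422, and the counts in DB and HBL-1 kept to 0 and 2. Leaving out 1 replicate at a time gave 0 to 4 members in DB, 1 to 2 in K422, 0 to 1 in HBL-1, 0 to 1 in OCI-Ly3 and 0 to 3 between subtypes. Under normexp and median centring EGR3 in K422 turned to 0.048 and DUSP2 in HBL-1 to -0.16. The deposited matrix moved the median of all genes by -0.073 in K422 to -0.106 in HBL-1. The cause was not tested in any of these cases. The count of siRNA differences was 0 in 22 of 22 alternatives, calls among the other gene lists ran from 9 to 18 around 12, and level calls from 4 to 5 (OCI-Ly3 against DB) and 4 to 7 (HBL-1 against K422). Low signal on some or all arrays limits EGR1, EGR2, EGR3 and FOSB in OCI-Ly3, EGR2 and EGR3 in K422, and EGR2, EGR3, NR4A3, FOS and FOSB in DB.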
